A study of Rattus norvegicus with 6 samples.

Results

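Cytosolic ribosomal protein genes were described in whole-blood RNA of rats after middle cerebral artery occlusion (MCAO) or a sham operation. Ribosomal proteins are the protein part of the ribosome, the particle that translates mRNA. They sit on a scaffold of ribosomal RNA in a large subunit, which forms the peptide bond, and a small subunit, which holds and decodes the mRNA. Their genes are transcribed strongly in nearly every cell and tend to be expressed together. Their mRNAs typically begin with a C and a run of pyrimidines, through which their translation responds to growth signals. In blood, reticulocytes, platelets and leukocytes carry such mRNAs, and lymphocytes are rich in them.

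A gene was counted when its symbol was Rpl, Rps or Rplp followed by a number, with an optional a, x or y, and when a probe set of the array carried that symbol alone. Of 14217 genes with such a probe set, 41 met the rule, of which 29 encode proteins of the large subunit and 12 proteins of the small subunit. For each gene the probe set with the highest mean over the 6 arrays was taken. The rule itself used no difference between the groups, but the set was chosen with earlier results of these data known.

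The animals were male Sprague-Dawley rats of 8 weeks. In the MCAO group (n = 3) a coated thread was advanced to close the origin of the middle cerebral artery and was then withdrawn, so that blood flow returned, whereas the sham group (n = 3) received an uncoated thread. Blood was drawn from the heart 24 h after reperfusion, and 1 array was hybridised per rat. The MCAO rats on the arrays were picked from a larger operated series by the size of their infarct, so that they stand for a selected part of that series. The question was which mRNAs of the blood differ after transient ischaemia of the brain. The erythroid genes Hbb, Alas2, Slc4a1, Ahsp and Epb42 had an average level between 11.31677 and 11.31735 in the 6 rats. No other tissue was compared, so the tissue label itself was not tested. In whole blood, fewer cells of a type and less RNA per cell cannot be told apart.

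Values are log2 signals as deposited, computed with the distribution free weighted (DFW) method, which gives each probe a weight and shrinks how far arrays lie apart. A ribosomal protein gene had a median SD of 0.000277 over the 6 arrays, whereas the median over all probe sets was 2.46e-06. Values are therefore printed with 4 or more decimals, and every difference is a log2 difference on the DFW scale rather than a fold change of raw intensity. The array medians lay between 5.56433, in MCAO rat 1, and 5.56440. Each probe set has its own probes, so that an order of levels between probe sets is no order of mRNA abundance.

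The start of the transcript was inspected for the pyrimidine run, since it is the sequence feature for which these genes are known. The run was defined after the sequences had been seen, as a C followed by at least 6 more C or T beginning within 10 bases of the start annotated by RefSeq (GRCr8), and was searched on the transcribed strand. A sequence was given for 36 of the 41 genes, and 20 of them (55.6%) held the run, compared with 12.5% of 27457 genes with a sequence. On the opposite strand, the same letters were found in 1 of the 36 genes (2.78%) and in 15.2% of all genes. The share was 56% of 25 large subunit genes and 54.5% of 11 small subunit genes. In contrast, 6 of 31 genes of translation factors held it (19.4%). A run is a match of letters near an annotated start, and none of the sites was measured here.

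The windows below are shown because they belong to the genes described one by one in the results. Each holds 30 bases of the transcribed strand, 15 of them before the annotated start. Capitals mark the run from the first C inside the 10-base limit, so that C or T may lie directly before them, and a window without capitals holds no run by this definition.
Rpl3, chr7:113507976-113508005, minus strand: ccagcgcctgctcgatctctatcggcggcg
Rpl6, chr12:41011676-41011705, minus strand: tatttttacatcactagatggcgggtgaaa
Rps9, chr1:74430423-74430452, minus strand: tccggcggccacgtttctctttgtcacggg
Rpl5, chr14:1995211-1995240, minus strand: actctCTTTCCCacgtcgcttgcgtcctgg
Rpl34, chr2:221962269-221962298, minus strand: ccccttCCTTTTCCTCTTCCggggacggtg
Rpl23, chr10:83272170-83272199, minus strand: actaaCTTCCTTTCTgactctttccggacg
Rpl14, chr8:129163605-129163634, plus strand: gggcgggCCCTCTCCCTTCTCgctgagcgc
Rps6, chr5:106420526-106420555, minus strand: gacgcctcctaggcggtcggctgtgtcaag
Rps3, chr1:163195762-163195791, minus strand: ttcctttcagcggcgcgcggcagcaagatg
Rps15a, chr1:181860270-181860299, minus strand: cggcgttttctttccacagtcaccatggtg
Rps28, chr7:15311319-15311348, minus strand: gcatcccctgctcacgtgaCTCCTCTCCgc
Rps3a, chr2:173827028-173827057, minus strand: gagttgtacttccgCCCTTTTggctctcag
Rps23, chr2:23814502-23814531, plus strand: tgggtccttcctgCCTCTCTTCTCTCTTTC

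Counted without the limit, the unbroken stretch of C and T was 20 bases in Rpl34, 14 in Rpl14, 11 in Rpl5 and 21 in Rps23, where it goes on past the end of the window. The windows of Rpl3, Rpl6, Rps9, Rps6, Rps3 and Rps15a hold no run.

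With all 6 rats, the ribosomal protein genes were slightly lower in the MCAO group as a set. For nearly every gene the shift was smaller than the spread between rats. The mean was lower in MCAO for 34 of the 41 genes (82.9%), compared with 50.2% of all 14217 genes. The median difference was -0.000103, and that of all genes was -3e-09. Relative to the within-group SD, the median difference was -0.436 for the ribosomal protein genes and -0.0037 for all genes. Only Rpl6, Rpl3 and Rps23 differed by more than 1 within-group SD, the former pair downward and Rps23 upward. The genes share the same 6 arrays, so that their number adds no replicates. The direction depended on MCAO rat 1, since without it the mean was lower in MCAO for 14 of the 41 genes (34.1%; 52.2% of all genes).

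The counts were similar in both subunits. The mean was lower in MCAO for 24 of 29 large subunit genes (82.8%) and for 10 of 12 small subunit genes (83.3%). The median difference was -0.000103 in the large and -0.000131 in the small subunit, or -0.436 and -0.417 within-group SD. Both median differences were 0 after quantile normalization, and without the dim probe sets described below the small subunit median was -0.000222 and the large subunit median -0.000154. No difference between the subunits was tested, because the genes are not replicates.

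Rank Products at an FDR under 0.05, the test named in the methods of the study, called 3 of the 41 genes downregulated in the MCAO group and none upregulated, leaving 38 not called. The 3 genes, Rpl3, Rpl6 and Rps9, amount to 7.32% of the set (6.9% of the large and 8.33% of the small subunit), whereas 0.606% of all 31042 probe sets were called lower and 0.129% higher. Probe sets of wide spread can take the extreme ranks in this test, and whether this accounts for the gap was not tested. The median range over the 6 arrays was 0.000706 for the ribosomal protein genes and 8.86e-06 for all genes, and 14 of the 41 were among the 1000 probe sets with the widest range. Among those 14, 3 were called (21.4%), beside 18.6% of the 1000. The range contains the group difference itself, and 186 of the 188 probe sets called lower were among the 1000. This comparison therefore cannot separate the spread from the group difference. None of the 3 genes was called when sham rat 1, 2 or 3 was left out, with FDRs between 0.0696 and 0.602, and Rps9 was also lost without MCAO rat 2 (FDR 0.166).

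No ribosomal protein gene passed limma, which weighs each difference against its own spread. At an adjusted p under 0.05, limma called 0 of the 41 and 0% of all probe sets. At an unadjusted p under 0.05, limma called 0 of the 41, while 1.59% of all probe sets were lower in MCAO. Moreover, the MCAO and sham rats overlapped for all 41 genes, compared with 8.54% of all genes in which they did not overlap in either direction. With 3 rats in each group, an exact permutation test cannot go below p = 0.1, and the lowest value among the 41 was 0.2, for Rpl6.

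Rpl3, a protein close to the centre where the peptide bond is formed, had the widest range of the set, 0.0125 (probe set 1371300_at). MCAO rats 1 to 3 gave 8.7903, 8.7978 and 8.7997, whereas sham rats 1 to 3 gave 8.7967, 8.8027 and 8.8011. MCAO rat 1 was lowest by a clear margin and sham rat 1 came next, below the other 2 MCAO rats, so that the groups overlapped. The means were 8.7959 ± 0.00497 in MCAO and 8.8002 ± 0.00312 in sham (SD, n = 3). The difference was -0.0043 ± 0.00319 (SE), with an FDR of 0.0356 by Rank Products, an adjusted p of 1 by limma and an exact permutation p of 0.3 (two-sided).

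Rpl6, another protein of the large subunit, had the largest downward difference relative to its spread, -1.16 within-group SD (probe set 1367567_at). Its level was 8.9843, 8.9891 and 8.9912 in MCAO rats 1 to 3, against 8.9893, 8.9932 and 8.9921 in sham rats 1 to 3. MCAO rat 1 lay below all others, MCAO rat 2 just below sham rat 1 and MCAO rat 3 above it. The difference was -0.00334 ± 0.00222 (SE), with an FDR of 0.0240 by Rank Products and an exact permutation p of 0.2. Rpl6 stayed called when MCAO rat 1 was left out (difference -0.00139, FDR 0.0445), whereas Rpl3 and Rps9 were not (FDR 0.107 and 0.118).

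Rps9, a small subunit protein that helps to shape the entry of the mRNA, was the only small subunit gene called (probe set 1387888_at). MCAO rats 1 to 3 had levels of 9.4487, 9.4507 and 9.4549, against 9.4537, 9.4519 and 9.4561 in sham rats 1 to 3. MCAO rats 1 and 2 were the lowest pair here, but MCAO rat 3 exceeded both sham rats 1 and 2. The difference was -0.00248 ± 0.00207 (SE), with an FDR of 0.0496 by Rank Products, just under the threshold, and an exact permutation p of 0.4.

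The members that followed in size did not pass the test. Rpl5, which carries the small ribosomal RNA of the large subunit into the ribosome, measured 9.4115, 9.4163 and 9.4160 in MCAO rats 1 to 3, against 9.4143, 9.4173 and 9.4168 in sham rats 1 to 3. MCAO rat 1 stood alone at the bottom, and the other 2 MCAO rats lay within the sham range. The difference of Rpl5 was -0.00154 ± 0.00169 (SE; FDR 0.106), and without MCAO rat 1 it was 1.99e-06. Rpl34 differed by -0.00121 ± 0.00107 (FDR 0.136) and Rpl23, which like Rpl5 can also bind the p53 regulator Mdm2, by -0.000979 ± 0.000943 (FDR 0.155). Rpl14 differed by -0.000743 ± 0.000756 (FDR 0.194). In all 3 the order of the lowest rats was the same as in Rpl3 and Rpl5, with MCAO rat 1 lowest and sham rat 1 second.

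The small subunit genes next to Rps9 were also led by MCAO rat 1. Rps6, the substrate of the ribosomal protein kinase that acts downstream of mTOR, measured 10.4712, 10.4740 and 10.4740 in MCAO rats 1 to 3, against 10.4726, 10.4746 and 10.4741 in sham rats 1 to 3. Its difference was -0.000697 ± 0.00104 (SE; FDR 0.221) and turned to 0.000242 without MCAO rat 1. Rps3, a protein at the entry of the mRNA channel, measured 8.3718, 8.3739 and 8.3739 in MCAO rats 1 to 3, against 8.3731, 8.3740 and 8.3738 in sham rats 1 to 3. In both genes MCAO rats 2 and 3 lay within the range of the sham rats. The difference of Rps3 was -0.000419 ± 0.000711 (FDR 0.711), and that of Rps15a was -0.000323 ± 0.000388 (FDR 0.706). For Rps3a and Rps28, the differences were -0.000229 ± 0.000287 (FDR 0.382) and -0.000222 ± 0.000306 (FDR 0.376).

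**Figure D1:**
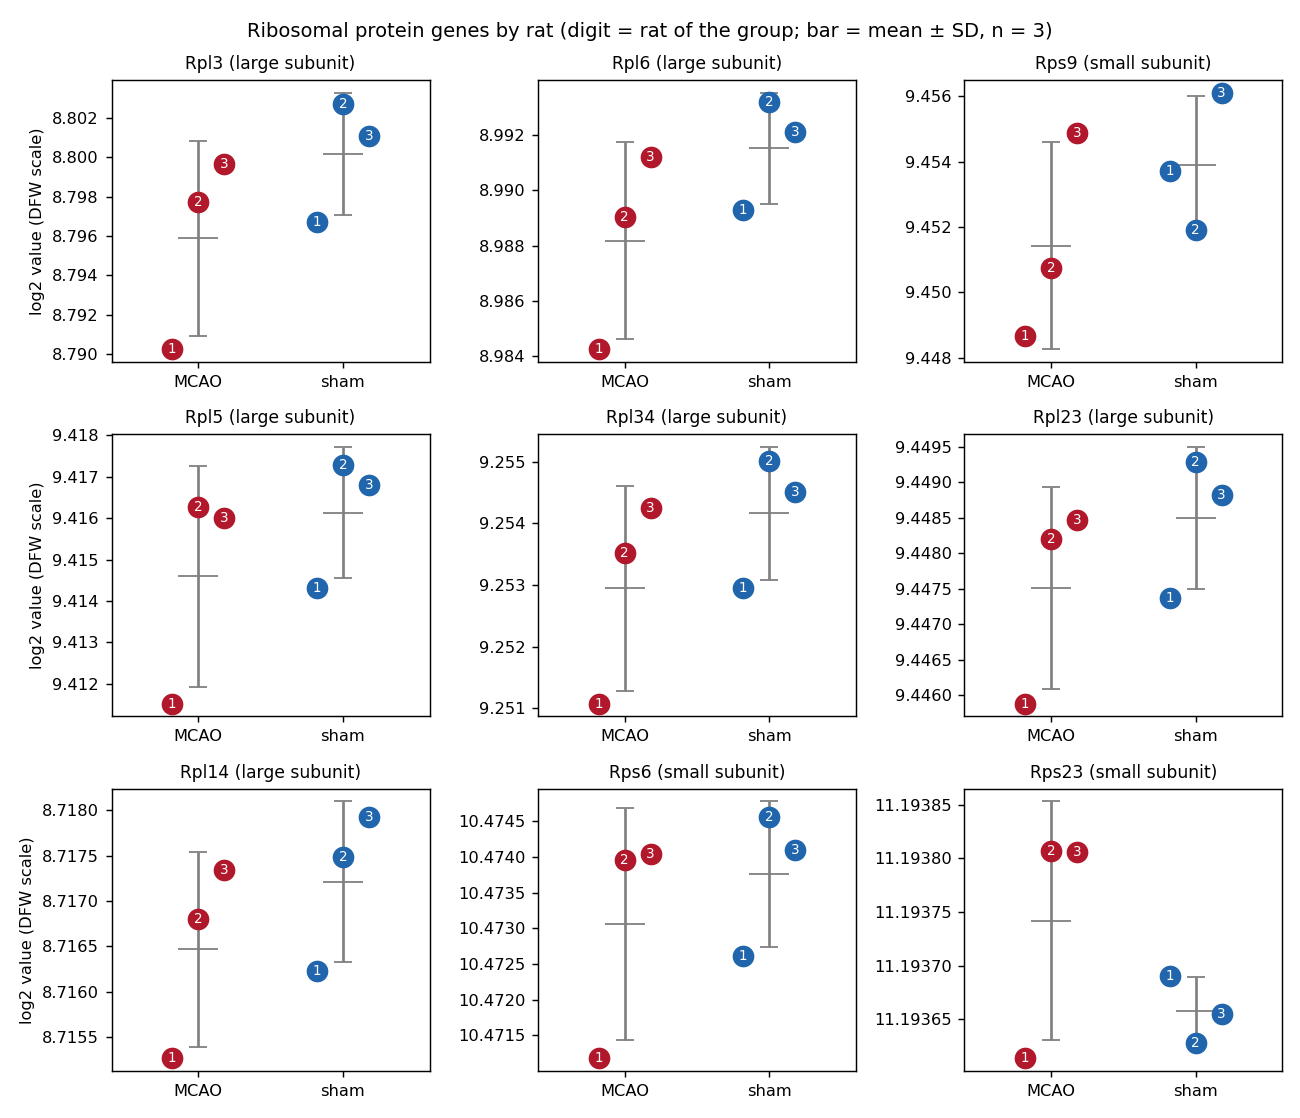
Log2 values on the DFW scale (y axis, a separate scale in each panel that does not start at 0) of 9 ribosomal protein genes in the 3 MCAO and the 3 sham rats. Digits give the rat of the group and bars the mean ± SD (n = 3), and MCAO rat 1 is the lowest of the 6 rats in all 9 panels.

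A few genes did not share the direction. Rps23, which lies near the decoding centre, was higher in MCAO by 8.45e-05 ± 6.26e-05 (SE), or 1.04 within-group SD, and was not called (FDR 0.729 for higher). It measured 11.193614, 11.193807 and 11.193806 in MCAO rats 1 to 3, against 11.193690, 11.193628 and 11.193655 in sham rats 1 to 3. MCAO rat 1 was once more the lowest, while the other 2 MCAO rats lay above all sham rats. The other 6 genes with a higher mean in MCAO were Rpl12, Rpl30, Rpl35, Rpl35a, Rpl37a and Rps13, with differences of at most 1.21e-05. Of these, Rpl30 and Rps13 were measured by dim probe sets at 5.3768 and 5.3392, and Rpl30 had the narrowest range of all, 5e-08. Rpl28 was dim as well, at 5.3802, and the means of the other 38 probe sets lay between 7.4413 and 12.5761. The dim probe sets of Rpl28, Rpl30 and Rps13 lay below the array medians. These genes were also named by probe sets of several symbols, described below.

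The influence of each rat was described by which rat held the lowest and the highest of the 6 values of a gene. MCAO rat 1 held the lowest value of 31 of the 41 genes (75.6%), 22 of 29 in the large subunit (75.9%) and 9 of 12 in the small subunit (75%). Over all 14217 genes it held the lowest value in 23.2% and the highest in 28.3%. Those genes had a much narrower median range (8.86e-06) than the ribosomal protein genes (0.000706). Whether probe sets of like brightness or spread were also low in this rat was not tested. Sham rat 1 held the lowest value of 6 further genes (14.6%). Together MCAO rat 1 and sham rat 1 were the lowest pair in 32 of the 41 genes (78%), compared with 11% of all genes, and neither held the highest value of any member.

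The highest values came mostly from the sham group. Sham rat 3 was highest in 22 genes, sham rat 2 in 11, MCAO rat 3 in 6 and MCAO rat 2 in 2. Expressed as the deviation from the mean of the 6 arrays divided by their SD, the median over the 41 genes was -1.51 in MCAO rat 1, 0.252 in MCAO rat 2 and 0.547 in MCAO rat 3. In the sham group it was -0.704, 0.514 and 0.876 in rats 1 to 3. Each group thus held 1 low rat and 2 higher rats, and the low MCAO rat lay further down than the low sham rat.

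**Figure D2:**
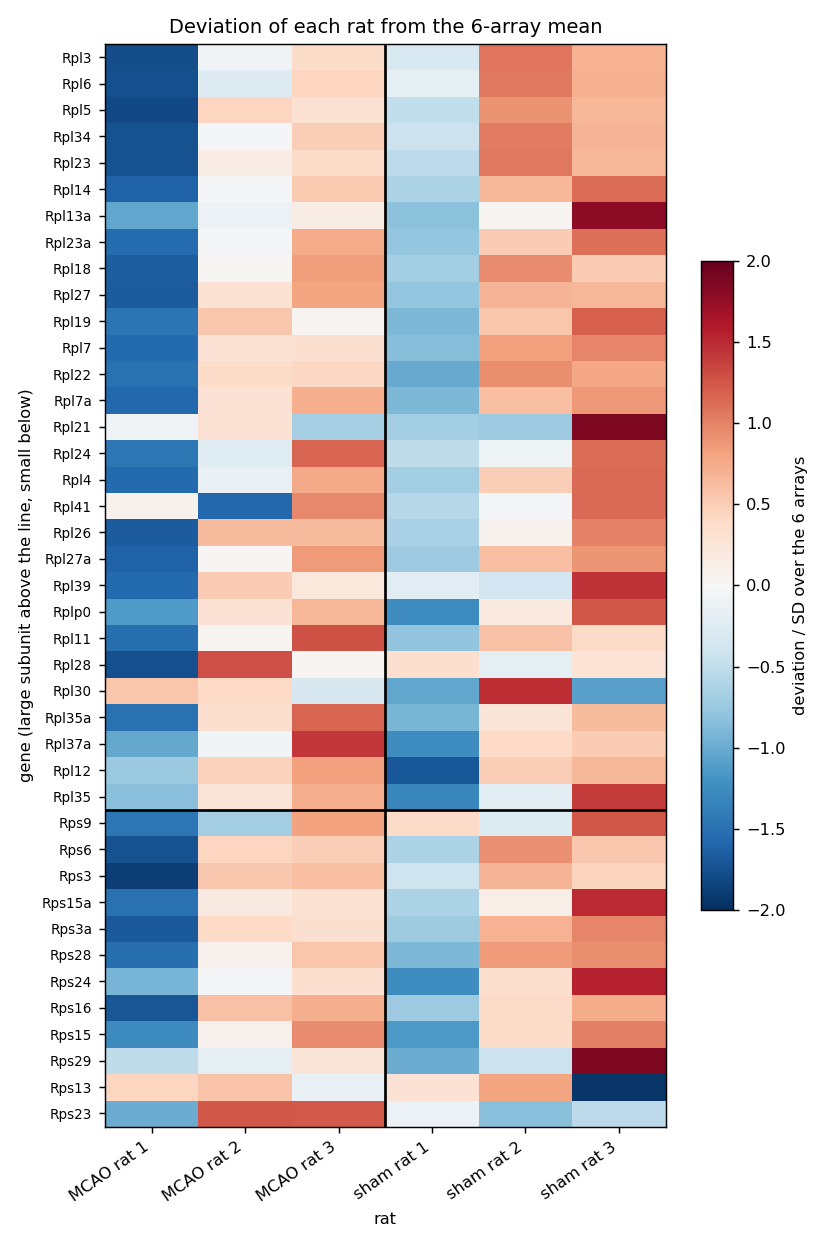
Deviation of each rat (columns) from the mean of the 6 arrays, divided by the SD over the 6 arrays (colour scale), for the 41 ribosomal protein genes (rows, large subunit above the line). The column of MCAO rat 1 is the darkest blue, with a median of -1.51, and that of sham rat 1 is blue in most genes, with a median of -0.704.

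**Figure D3:**
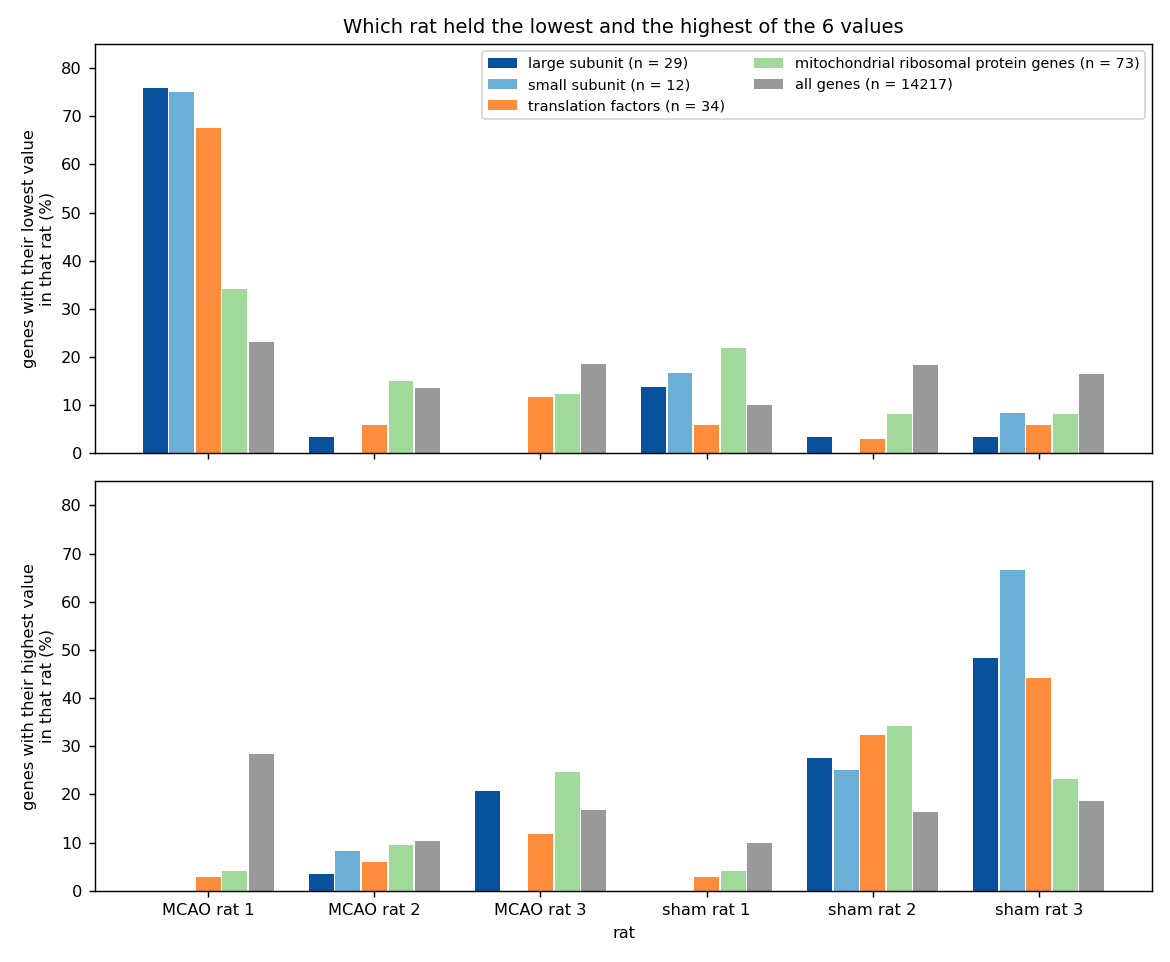
Percentage of genes (y axis) whose lowest value (upper panel) or highest value (lower panel) lay in each rat (x axis), for both ribosomal subunits, translation factors, mitochondrial ribosomal protein genes and all genes. MCAO rat 1 held the lowest value of 75.9% of large and 75% of small subunit genes, against 23.2% of all genes.

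The direction of the set depended on which rats were kept. Without MCAO rat 1, the mean was lower in MCAO for 14 of 41 genes (34.1%; 52.2% of all genes), and the median difference was 6.07e-06, or 5.20e-06 in the large and 1.00e-05 in the small subunit. Without sham rat 1, in contrast, it was lower for 38 of 41. All MCAO rats then lay below the remaining sham rats in 12 of the 41, a larger share than the 12.5% of all genes. Without sham rat 3 the mean was lower in MCAO for 24, and without any of the other rats for between 34 and 37. When both MCAO rat 1 and sham rat 1 were left out, an alternative chosen after the values were seen, the mean was lower in MCAO for 31 of 41 (75.6%; 52.9% of all genes), with a median difference of -9.10e-05 from 2 rats in each group.

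**Figure D4:**
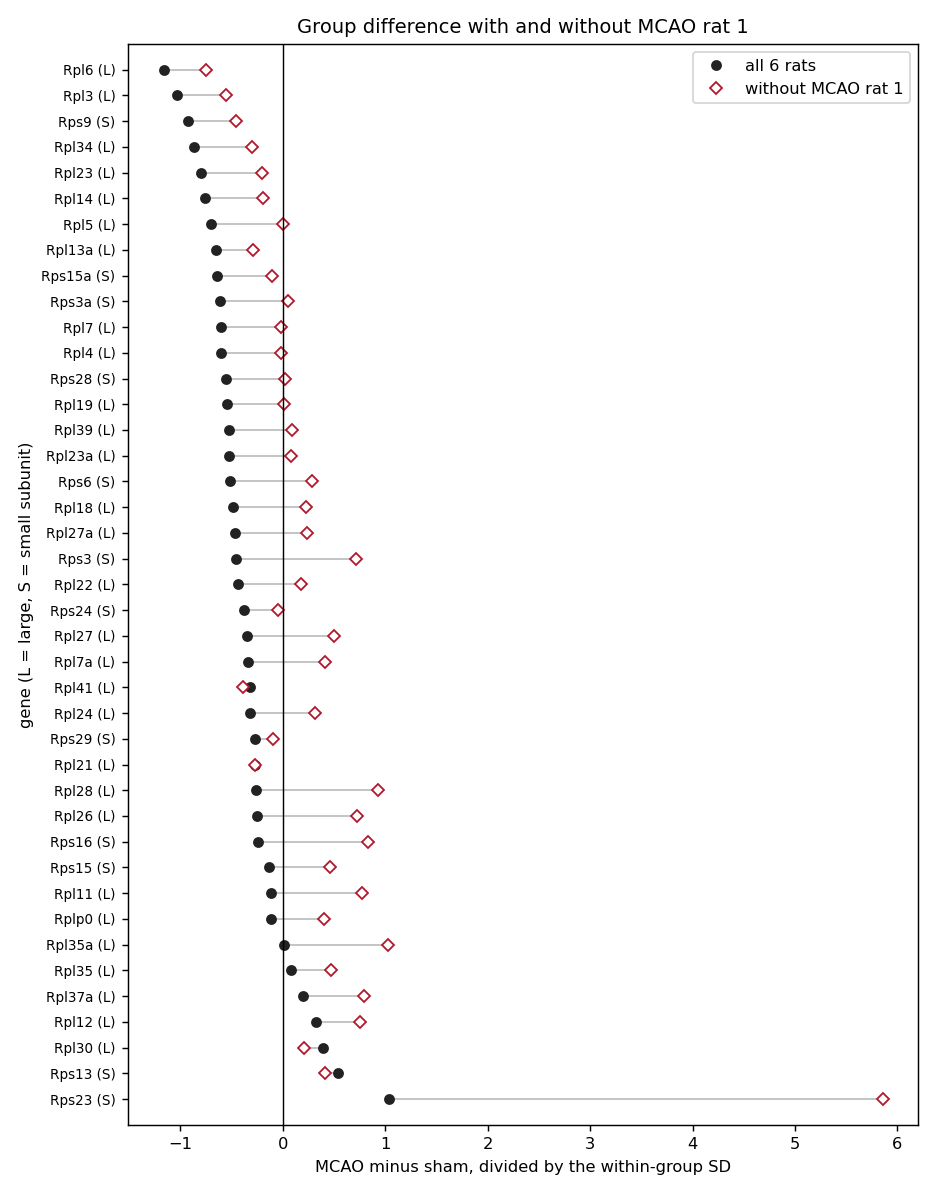
MCAO minus sham difference divided by the within-group SD (x axis) for each ribosomal protein gene (y axis), over all 6 rats (filled) and without MCAO rat 1 (open). With all rats 34 of 41 genes lie left of 0, and without MCAO rat 1 only 14 do.

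The scaling of the arrays mattered as well. After quantile normalization, the mean was lower in MCAO for 11 genes (26.8%; 39.6% of all genes), higher for 4 and equal within 1e-12 for 26. Means were equal because bright probe sets that keep their rank receive the same value in every array. In 2 of the 41 genes, instead of 31, MCAO rat 1 was then strictly lowest. None of the 41 was called, and the difference of Rpl3 was 0.000961. After centring each array on its median, 28 of 41 were lower (68.3%), beside 11.1% of all genes, whose median difference moved to 2.98e-05. Centring shifts every difference by the same amount, and the median range of all genes, 8.86e-06, is smaller than that shift. In narrow probe sets the sign was thus largely set by centring itself, so these percentages cannot be compared. The calls of Rpl3, Rpl6 and Rps9 were the same after centring.

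A lower mean in MCAO was common in genes with and without the pyrimidine run. Of the 20 genes with a run, 15 had a lower mean in MCAO, with a median of -0.451 within-group SD, and 15 were lowest in MCAO rat 1. Of the 16 genes without a run, 15 had a lower mean, with a median of -0.394, and 13 were lowest in MCAO rat 1. The genes called, Rpl3, Rpl6 and Rps9, were among the latter by the definition used, which Rps9 missed with a stretch of 6 from its first C. These counts are descriptions and were not tested.

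Further ribosomal protein genes could be seen only through probe sets that carry several symbols and so fell outside the rule. There were 33 such probe sets, naming 30 ribosomal protein genes, and 27 of those genes, among them Rpl10, Rpl32, Rps2 and Rps19, had no probe set of their own. The other 3, Rpl28, Rpl30 and Rps13, were members with only a dim probe set of their own. None of the 33 was called and in none did the groups separate. The mean was lower in MCAO for 27 of them, and for 10 without MCAO rat 1. Their lowest value lay in MCAO rat 1 in 22 and in sham rat 1 in 11, so that these 2 rats held all of the lowest values.

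Ribosomal components whose symbols do not meet the rule were measured for 4 of 10 listed genes, and none was called. Rpsa, a protein of the small subunit, differed by -0.000215 ± 0.000298 (SE), and Rack1, a scaffold protein on the small subunit, by -0.000156 ± 0.000287. Rpl3l and Rps27l, which are paralogs of ribosomal proteins, differed by -3.62e-07 ± 3.08e-06 and by -2.85e-07 ± 8.04e-07.

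Translation factors, which act on the ribosome, were lower in MCAO for 30 of 34 measured genes (88.2%; 50.2% of all genes). The count was 17 after centring (50%; 11.1% of all genes), percentages that cannot be compared, as described above. It was 19 after quantile normalization (55.9%; 39.6% of all genes). Rank Products called 3 of the 34 lower and none higher, beside 0.606% of all probe sets called lower. However, 7 of the 34 were among the 1000 probe sets with the widest range, of which 18.6% were called lower. Eif1ax, which takes part in the search for the start codon, measured 7.1840, 7.1841 and 7.1839 in MCAO rats 1 to 3, against 7.1846, 7.1863 and 7.1874 in sham rats 1 to 3. Here all MCAO rats lay below all sham rats, which was the case in 5 of the 34 genes, in none of the ribosomal protein genes and in 4.11% of all genes. The difference of Eif1ax was -0.00213 ± 0.000755 (FDR 0.0103). Pabpc4, a protein that binds the poly(A) tail, differed by -0.000975 ± 0.000291 (FDR 0.0356), and Eef1b2, an exchange factor of elongation, by -0.00337 ± 0.00274 (FDR 0.0438). MCAO rat 1 was lowest in 23 of the 34 (67.6%), and without it the mean was still lower in 23 (67.6%), compared with 14 of 41 ribosomal protein genes. The difference between the lists was not tested.

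No gene of ribosome biogenesis or of the mitochondrial ribosome passed the test. The mean was lower in MCAO for 32 of 39 measured biogenesis genes (82.1%; 50.2% of all genes). The count was 5 after centring (12.8%; 11.1% of all genes) and 21 after quantile normalization (53.8%; 39.6% of all genes). Ncl, the nucleolar protein nucleolin, differed by -0.000843 ± 0.000546 (FDR 0.183), and Fbl, the methyltransferase fibrillarin, by -0.000174 ± 0.000105 (FDR 0.328). Of 73 mitochondrial ribosomal protein genes, 57 had a lower mean (78.1%), but 8 after centring (11%) and 35 after quantile normalization (47.9%). MCAO rat 1 was lowest in 25 of them (34.2%), and without it 40 had a lower mean. The widest differences were those of Mrps17, -0.000293 ± 0.000294 (FDR 0.507), and Mrpl53, -0.000221 ± 0.000209 (FDR 0.376). The median range was 1.09e-05 in the biogenesis and 9.90e-06 in the mitochondrial list. Both are smaller than the shift that centring adds to every difference, so the counts after centring largely reflect that shift.

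Markers of several leukocyte types were also low in MCAO rat 1, and their part in the result was not tested. As scaled deviations, the medians in MCAO rat 1 were -1.73 for the T cell, -1.58 for the B cell, -1.13 for the NK cell, -1.12 for the monocyte and -0.697 for the neutrophil markers, and -0.550 for the erythroid and -0.464 for the platelet markers. MCAO rat 1 was lowest in 6 of 7 T cell, 4 of 5 B cell, 4 of 6 NK cell, 4 of 6 monocyte, 4 of 8 neutrophil, 2 of 5 erythroid and 1 of 6 platelet markers. In sham rat 1, the low rat of the sham group, the medians were -0.789 for the platelet, -0.679 for the erythroid, -0.618 for the monocyte, -0.326 for the T cell, -0.300 for the NK cell, -0.168 for the neutrophil and 0.359 for the B cell markers. The corresponding medians of the ribosomal protein genes were -1.51 and -0.704.

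The mean was lower in MCAO for all 7 T cell markers measured, of which Tcf7 (difference -0.00603 ± 0.00400, FDR 0.0170) and Cd3g (-0.00312 ± 0.00207, FDR 0.0483) were called lower. All 7 were still lower in MCAO without MCAO rat 1. The T cell markers averaged from 6.53799 to 6.54165 in the MCAO rats and from 6.54073 to 6.54323 in the sham rats. All 5 B cell markers were lower, and Rank Products called Ms4a1 (-0.00509 ± 0.00229, FDR 0.00414), Fcmr (-0.00485 ± 0.00218, FDR 0.0050) and Cr2 (-0.000833 ± 0.000330, FDR 0.0450). Their averages, 6.43477 to 6.43723 in MCAO and 6.43735 to 6.43943 in sham, did not overlap. Single B cell markers were separated with MCAO below in 4 of 5, compared with 4.11% of all genes, and no T cell or NK cell marker was. All 6 NK cell markers were lower, and Prf1, the pore-forming protein of cytotoxic cells, was called (-0.00489 ± 0.0041, FDR 0.0223), while the next largest difference, of Klrd1, was -0.000314 ± 0.000774. Among the 1000 probe sets with the widest range, 18.6% were called lower. Those 1000 probe sets, called or not, included 5 of 7 T cell, 3 of 5 B cell and 2 of 6 NK cell markers. Over all features, 50.2% of genes had a lower mean, and 0.606% of probe sets were called lower and 0.129% higher. Of 8 neutrophil markers, 2 were lower. Csf3r was called higher (0.0131 ± 0.0187, FDR 0.0308) and S100a9 was called lower although its mean was higher (0.00271 ± 0.0278, FDR 0.0430). Of 6 monocyte markers, 3 were lower and none was called, Csf1r differing by -0.00132 ± 0.00159 and Lyz2 by 0.000289 ± 0.0216. Of 6 platelet markers, 1 was lower and none was called, with Treml1 at 0.000450 ± 0.000477 and Ppbp at 0.000205 ± 0.000176. The 5 erythroid genes were all lower and none was called, with Slc4a1 at -0.000541 ± 0.000279 and Ahsp at -0.000136 ± 0.000624. The erythroid averages were 11.31681 to 11.31709 in MCAO and 11.31677 to 11.31735 in sham. After centring, the mean was lower in MCAO for 5 of 7 T cell and 4 of 5 B cell markers. It was also lower for 5 of 6 NK cell and 3 of 5 erythroid markers. After quantile normalization, the counts of these lists were 6, 5, 5 and 0, beside 39.6% of all genes. Of the 5 erythroid genes, 4 then had equal means in both groups and 1 had a higher mean in MCAO.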

How the data were processed

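Blood RNA of 3 MCAO and 3 sham rats was hybridised to rat genome GeneChip arrays, with 1 rat to an array per the study methods. The log2 values deposited by the authors were normalized over the 6 arrays in R with DFW, 31099 probe sets in all, and ran from 4.93 to 14.43. Their log base is not given in the sources used here and was inferred from these limits. They hold no background estimate, and precision is limited by the number of arrays.

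Tests covered 31042 probe sets, without the 57 controls, of which 20826 carried 1 gene symbol, 436 several and 9780 none in the annotation table of the array. That table can be old, and 39 of the 41 genes were found by gene ID in the RefSeq table (GRCr8). Promoter sequences are those of RefSeq. Rank Products for 2 unpaired classes was written anew in Python 3.11.15 (numpy 2.4.6, pandas 2.3.3), ranking the 9 pairwise comparisons of MCAO with sham arrays, with 100 permutations. limma 3.58.1 in R 4.3.3 gave standard errors and Benjamini-Hochberg adjusted p values over the 31042 probe sets. Permutation tests of single genes were exact and two-sided. Both methods were also run on simulated arrays in which all probe sets shared a common SD. The spread of these data is far from equal, so that run does not show how the methods behave here.

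The members, the gene lists and the tests were chosen with earlier results of these data known. Genes were named when called, when among the 6 with the largest difference in each subunit, when among the 3 with the largest difference relative to the spread in each direction, or when their range was the widest or narrowest. From the lists of translation factors, ribosome biogenesis, mitochondrial ribosomal proteins and cell markers, those called and the 2 with the largest difference were named, and all measured genes of the list outside the rule. The other genes with a higher mean, the dim Rpl28 and the examples among probe sets of several symbols were named after their values were seen. The alternatives were limma, a trend, a replicate block, rank sums, an FDR of 0.01, other normalizations, other probe set choices and leaving out rats.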

Additional observations from a re-analysis of the deposited data

How the results depend on the processing

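Centring of the arrays, keeping the control probe sets and including probe sets of several symbols left 3 genes called lower in MCAO, and the median over the probe sets of a gene left 2, without Rpl3. None was called with rank sums, quantile normalization, an FDR of 0.01, the probe sets above the median level alone (38 members left), limma at an adjusted p, alone, with a trend or with the replicate block, or limma at an unadjusted p, alone or with a trend: the count was 0 in each. Leaving out 1 rat gave 0 to 3 calls: 1 (Rpl6) without MCAO rat 1 and 0 without sham rat 1, 2 or 3, where all probe sets gave 12 to 43 lower calls. The cause was not tested. With the replicate block, in which only same-numbered rats are compared, 7 genes were called lower, with Rpl5, Rpl34, Rpl23 and Rpl14 in addition, and 292 of all probe sets against 188. Same-numbered rats correlated at 0.215, 0.040 and 0.063 in their deviations, so the numbers were not taken to pair them. MCAO rats 1 and 2 correlated best with the sham rat of their number, and MCAO rat 3 with sham rat 2.

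The number of genes with a lower mean, 34 of 41, was 11 after quantile normalization and 14 to 38 when 1 rat was left out. Groups separated with MCAO below in 0 to 12 genes and with MCAO above in 0 to 1 when 1 rat was left out, and in 3 above after centring. The difference of Rpl3 turned to 0.000961 after quantile normalization. Of the other checks of the named genes, 103 kept direction and call, 6 became a difference of 0 after quantile normalization, 14 lost a call, 4 gained one, all under the replicate block, and 7 differences without a call changed sign. When 1 rat was left out these ranged from -0.00244 to 1.99e-06 for Rpl5, -0.000447 to 7.59e-06 for Rps28, -0.000785 to 0.000283 for Rps3, -0.000413 to 1.25e-05 for Rps3a and -0.00127 to 0.000242 for Rps6, each highest without MCAO rat 1. Rpl30 ranged from -1.67e-10 to 2.48e-08 and Rps13 from -2.15e-06 to 9.36e-06, each lowest without sham rat 3. MCAO rat 1 was lowest in 25 genes after centring and strictly lowest in 2 after quantile normalization, against 31. Leaving out both rats numbered 1, the count of lowest values after quantile normalization, leaving out the 3 dim probe sets and adding probe sets of several symbols were chosen after seeing the data.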
